A study of Sus scrofa with 12 samples.

Results

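A set of 10 genes of the circadian clock and its feedback loops was followed in porcine granulosa cells: BHLHE40, BHLHE41, PER1, PER2, CRY1, CRY2, CLOCK, NR1D1, NR1D2 and RORA. They were taken by symbol from the deposited expression table, where all 10 were found among 18060 genes, and their m6A peaks were taken by the same gene identity from the deposited peak lists. Granulosa cells line the ovarian follicle, nurse its oocyte and make steroid hormones. These were primary cells from antral follicles of Duroc × Yorkshire × Landrace sows, grown in medium with serum, and exposed for 12 h to hypoxia (1% O2, 5% CO2, 94% N2) or normoxia (21% O2, 5% CO2, 74% N2). Hypoxia and normoxia were each sampled in 3 biological replicates. For each replicate poly(A) RNA was sequenced as input and after pull-down with an antibody to N6-methyladenosine (m6A), which makes 12 libraries, all labelled as 1 batch. Both conditions were sampled at a single time, so a change in level and a shift in the phase of a rhythm cannot be told apart. The series' design text calls the replicates independent but does not tie them to single sows, so the p-values measure the spread between these libraries. Among the inputs hypoxia library 3 stood apart from hypoxia libraries 1 and 2 in many genes, and values without it are given beside the genes it moves most.

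The mammalian clock is a transcriptional loop. CLOCK, or its relative NPAS2, pairs with ARNTL (BMAL1) and activates genes through E-boxes, among them the PER and CRY genes, whose products return to repress the pair. A further loop runs through the nuclear receptors NR1D1 and NR1D2 (REV-ERB alpha and beta), which repress ARNTL, and RORA, which activates it. BHLHE40 and BHLHE41 (DEC1 and DEC2) are repressors that bind E-boxes themselves, and BHLHE40 is known in other cells as a target of hypoxia-inducible factors. Clock genes cycle in granulosa cells of several mammals, where the clock has been tied to ovulation and steroid synthesis.

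In hypoxia BHLHE41 and NR1D1 rose and CRY1 fell, while BHLHE40, PER1, CRY2, CLOCK and NR1D2 did not pass the test and PER2 and RORA were too low to be tested. Levels are given as FPKM, a read density corrected for transcript length and sequencing depth. Of the 10 genes 8 reached at least 1 FPKM in at least 3 of the 6 input libraries and were tested with limma on log2(FPKM + 1), with p-values adjusted by the Benjamini-Hochberg method over 10196 genes and a threshold of 0.05. The test called 2 of the 8 higher, where 5.40% of tested genes were called higher, and 1 lower, where 21.1% were called lower. CRY1 met the filter through its normoxia libraries alone and BHLHE41 could not have met it without its hypoxia libraries, so these counts are not read further. All tested genes had a median log2 fold change of -0.26, and of 0.02 after each library was divided by a median-ratio factor, here called scaling. With scaling 2 of the 8 were again higher (7.34% of tested genes) and 1 lower (7.39%), 3 in all where 14.7% were called. Without hypoxia library 3 it was also 2 higher (9.93%) and 1 lower (31.6%), where 41.6% were called. With both changes 5 of the 8 passed (39.7%), with 4 higher (19.3%) and 1 lower (20.4%), a setting chosen after seeing the data. BHLHE41 alone passed among 8 tested without hypoxia library 1, where 12.2% of tested genes passed. It also passed alone among 7 tested without normoxia library 1 (13.9%), 2 (10.2%) or 3 (12.3%), shares that are close to 1 in 7 or 8. With no filter 2 of the 10 passed (15.9% of all 18060 genes), with 1 higher (4.29%) and 1 lower (11.6%). In bulk samples fewer cells of a type and less RNA per cell cannot be told apart.

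The conditions did not overlap in 4 of the 8 tested genes (44.1% of all tested genes). BHLHE41, CRY2 and NR1D1 had each hypoxia library above each normoxia library (9.25%) and CRY1 below (34.9%).

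**Figure D1:**
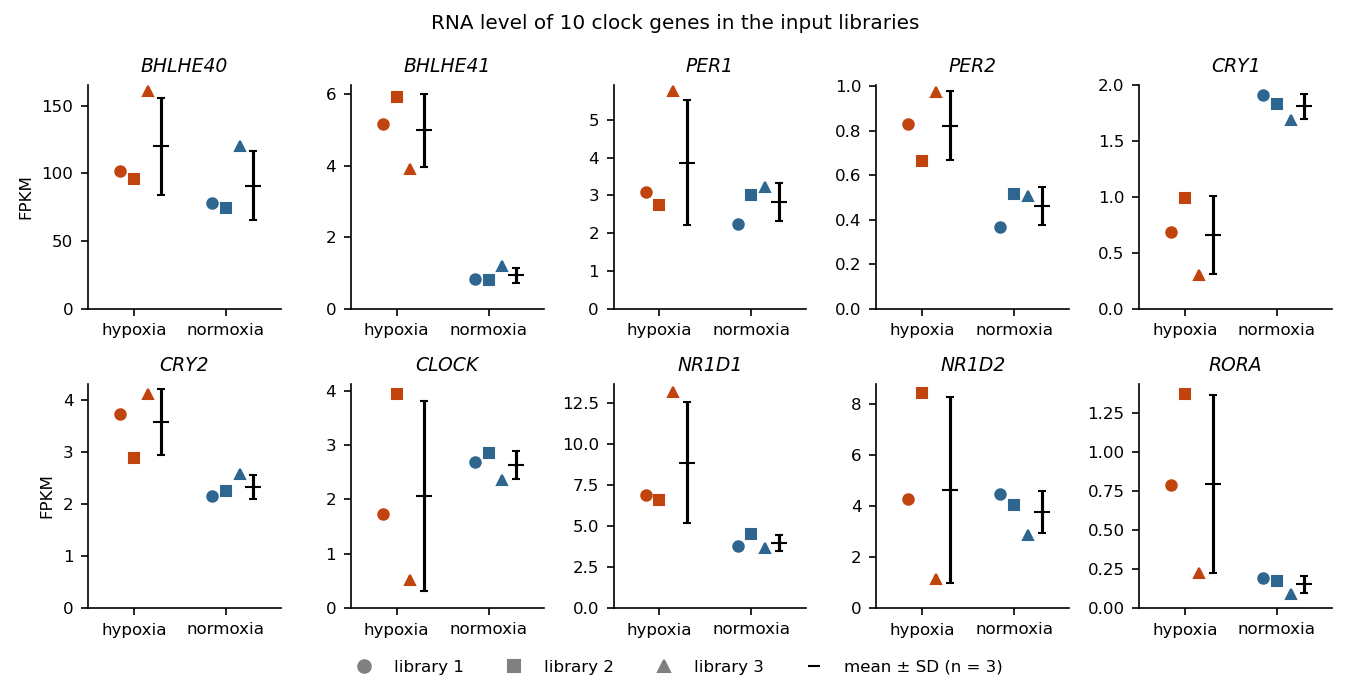
FPKM of each of the 10 clock genes in the 3 hypoxia (orange, left) and 3 normoxia (blue, right) input libraries, with symbols for libraries 1 to 3 and the mean ± SD beside them; each panel has its own linear axis starting at 0. BHLHE41, CRY1, CRY2, NR1D1, PER2 and RORA show no overlap between conditions, and hypoxia library 3 is the highest or the lowest hypoxia library in each panel.

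Of the E-box repressors BHLHE41 rose, while BHLHE40, the most abundant of the 10 genes, did not pass the test. BHLHE41 (chromosome 5, 47686404 to 47692762, plus strand, Sscrofa11.1) had 5.15, 5.91 and 3.89 FPKM in the hypoxia libraries, against 0.815, 0.812 and 1.18 FPKM in the normoxia libraries. Each hypoxia library lay above each normoxia library. The mean was 4.98 ± 1.02 FPKM in hypoxia and 0.935 ± 0.21 FPKM in normoxia (SD, n = 3 each), a ratio of 5.33. On the log2 scale this was 1.62 (SE 0.192, limma adjusted p = 0.00162). Its call held with each library left out in turn, with a highest limma adjusted p of 0.0182, and the log2 fold change was 1.76 without hypoxia library 3. The authors' deposited table gives BHLHE41 a log2 fold change of 2.41 and a q-value of 1.95e-13.

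BHLHE40 (chromosome 13, 61526116 to 61533674, plus strand) had 102, 95.7 and 161 FPKM in hypoxia, against 78, 74.8 and 120 FPKM in normoxia. Libraries 1 and 2 of hypoxia lay below normoxia library 3, so the conditions overlapped, and in both conditions library 3 was the highest. The log2 fold change was 0.38 (SE 0.266, limma adjusted p = 0.34), with an interval of 2 SE either side from -0.15 to 0.92. Without hypoxia library 3 it was 0.15 (limma adjusted p = 0.568) and after scaling it was 0.74 (limma adjusted p = 0.203). Each hypoxia library lay above the normoxia library of the same number. With the replicate number as a block the log2 fold change of 0.38 had less spread but still did not pass (SE 0.134, limma adjusted p = 0.0602). In the authors' deposited table BHLHE40 has a log2 fold change of 0.39 and a q-value of 0.132. Within each library BHLHE41 stood at 0.0506, 0.0618 and 0.0241 of the FPKM of BHLHE40 in hypoxia, against 0.0105, 0.0109 and 0.0098 in normoxia. This ratio does not depend on the scaling of a library, and it was higher in each hypoxia library than in any normoxia library.

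Of the cryptochromes, which repress CLOCK and ARNTL directly, CRY1 fell and CRY2 did not pass the test. CRY1 (chromosome 5, 13275545 to 13364593, plus strand) had 0.683, 0.991 and 0.297 FPKM in hypoxia, against 1.91, 1.83 and 1.69 FPKM in normoxia. Each hypoxia library lay below each normoxia library, and hypoxia library 3 was the lowest. The mean was 0.657 ± 0.348 FPKM in hypoxia and 1.81 ± 0.113 FPKM in normoxia (SD, n = 3 each). The ratio of means was 0.363 and the log2 fold change -0.78 (SE 0.186, limma adjusted p = 0.0208). With no filter, where its entry into the test does not rest on the normoxia libraries, CRY1 also passed as lower (limma adjusted p = 0.0353). The call was lost without hypoxia library 1 (limma adjusted p = 0.0832), and without any of the normoxia libraries CRY1 no longer met the filter on low values. Its log2 fold change was -0.62 both after scaling (limma adjusted p = 0.0491) and without hypoxia library 3 (limma adjusted p = 0.00748).

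CRY2 (chromosome 2, 16587109 to 16620385, minus strand) had 3.73, 2.88 and 4.13 FPKM in hypoxia, against 2.15, 2.26 and 2.58 FPKM in normoxia. The conditions did not overlap, but the log2 fold change of 0.45 did not pass (SE 0.175, limma adjusted p = 0.101, 0.0646 after scaling). Without hypoxia library 3 it was 0.37 (limma adjusted p = 0.094). It passed when scaling was combined with leaving out hypoxia library 3 (0.54, limma adjusted p = 0.019). The authors' deposited table gives CRY2 a log2 fold change of 0.62 with a q-value of 0.0405, and CRY1 -1.46 with 0.0207. It marks CRY1 as significant but not CRY2. At the low level of CRY1 the added 1 FPKM shrinks the change, and with a pseudocount of 0.1 the log2 fold change was -1.45 (limma adjusted p = 0.0391). The ratio of CRY1 to CRY2 within a library was 0.183, 0.344 and 0.072 in hypoxia, against 0.891, 0.813 and 0.654 in normoxia. On the log2 scale the ratio averaged -2.59 ± 1.13 in hypoxia and -0.36 ± 0.23 in normoxia (SD, n = 3 each), a difference of -2.24, and -1.64 without hypoxia library 3.

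Ratios within a library were compared for 4 pairs of related genes with a two-sided exact permutation test, and these pairs were set after their values were seen. With 3 libraries against 3 the smallest p this test can give is 0.10, so no ratio could pass. CRY1 to CRY2 and BHLHE41 to BHLHE40 reached that smallest value (exact p = 0.10, 0.20 adjusted over the 4). PER2 to PER1 gave an exact p of 0.20 and NR1D1 to NR1D2 an exact p of 0.50.

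The period genes code for the partners of the cryptochromes in the repressive complex. PER1 (chromosome 12, 53361889 to 53374248, minus strand) had 3.1, 2.75 and 5.76 FPKM in hypoxia, against 2.24, 3 and 3.21 FPKM in normoxia. The first 2 hypoxia libraries lay within the normoxia range and hypoxia library 3 far above it. The log2 fold change was 0.31 (SE 0.26, limma adjusted p = 0.438) and 0.05 without hypoxia library 3 (limma adjusted p = 0.851). PER2 (chromosome 15, 137793422 to 137837070, minus strand) had 0.828, 0.665 and 0.974 FPKM in hypoxia, against 0.365, 0.516 and 0.507 FPKM in normoxia. Its conditions did not overlap, and the ratio of means was 1.78, or 1.61 without hypoxia library 3. PER2 was below the filter, and in a fit with no filter its log2 fold change was 0.32 (limma adjusted p = 0.102). In the authors' deposited table PER2 has a q-value of 0.0305 and PER1 of 0.151, and neither is marked as significant.

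NR1D1, the haem-binding repressor of ARNTL (chromosome 12, 22263657 to 22271643, plus strand), had 6.9, 6.56 and 13.2 FPKM in hypoxia, against 3.77, 4.51 and 3.63 FPKM in normoxia. Each hypoxia library lay above each normoxia library, and hypoxia library 3 was the highest of them. The mean was 8.87 ± 3.71 FPKM in hypoxia and 3.97 ± 0.475 FPKM in normoxia (SD, n = 3 each). The log2 fold change was 0.93 (SE 0.264, limma adjusted p = 0.0393). Without hypoxia library 3 it was 0.64 with less spread (SE 0.155, limma adjusted p = 0.00626), and after scaling it was 1.24 (limma adjusted p = 0.0429). The call was lost without hypoxia library 1 (limma adjusted p = 0.0779), without normoxia library 1 (0.127), 2 (0.106) or 3 (0.13), and with no filter on low values (0.0725). The authors' deposited table marks NR1D1 as up, with a q-value of 0.00109.

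NR1D2, the second receptor of this kind (chromosome 13, 10756926 to 10791210, plus strand), had 4.28, 8.41 and 1.15 FPKM in hypoxia, against 4.45, 4.02 and 2.85 FPKM in normoxia. The hypoxia libraries ran from below to above the normoxia range. The log2 fold change was 0.01 (SE 0.501, limma adjusted p = 0.994), with an interval of 2 SE from -0.99 to 1.01, which holds both rises and falls. It was 0.58 without hypoxia library 3 (limma adjusted p = 0.0707) and 0.77 without that library and after scaling (limma adjusted p = 0.0106).

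RORA, which competes with these repressors at shared elements (chromosome 1, 111375457 to 111477703, plus strand), had 0.788, 1.37 and 0.226 FPKM in hypoxia, against 0.189, 0.173 and 0.0903 FPKM in normoxia. Each hypoxia library lay above each normoxia library, with hypoxia library 3 close to the normoxia range. The ratio of means was 5.27, and 7.15 without hypoxia library 3. RORA was below the filter, and with no filter its log2 fold change was 0.59 (SE 0.236, limma adjusted p = 0.166). The authors' deposited table marks RORA as up, with a log2 fold change of 2.40 and a q-value of 7.35e-05.

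CLOCK, the activator of the loop (chromosome 8, 54793342 to 54877777, minus strand), had 1.73, 3.95 and 0.509 FPKM in hypoxia, against 2.69, 2.85 and 2.35 FPKM in normoxia. The hypoxia libraries lay on both sides of a narrow normoxia range. Its log2 fold change was -0.41 (SE 0.4, limma adjusted p = 0.51) and turned to 0.02 without hypoxia library 3 (limma adjusted p = 0.954).

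**Figure D2:**
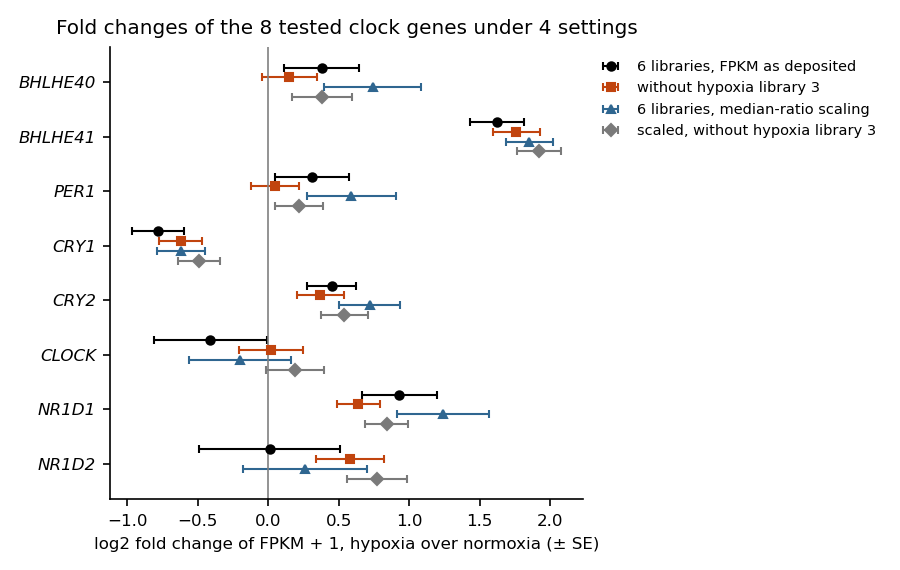
Log2 fold change of FPKM + 1, hypoxia over normoxia, with its SE from the limma fit, for the 8 tested clock genes under 4 settings: 6 libraries as deposited, without hypoxia library 3, after median-ratio scaling, and both together. BHLHE41 and NR1D1 stay above 0 and CRY1 below it in each setting, whereas CLOCK changes sign between -0.41 and 0.19 and NR1D2 moves from 0.01 to 0.77.

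By level, BHLHE40 led in both conditions, at 13.5 times the mean FPKM of the next gene, NR1D1, in hypoxia and 22.9 times in normoxia. In hypoxia NR1D1 (8.87 FPKM) was followed by BHLHE41 (4.98), NR1D2 (4.61), PER1 (3.87), CRY2 (3.58), CLOCK (2.06), PER2 (0.822), RORA (0.794) and CRY1 (0.657). From BHLHE41 downward each gene's range over the hypoxia libraries overlapped that of the next. In normoxia the order after NR1D1 (3.97 FPKM) was NR1D2 (3.77), PER1 (2.82), CLOCK (2.63), CRY2 (2.33), CRY1 (1.81), BHLHE41 (0.935), PER2 (0.463) and RORA (0.151). There NR1D1 to CRY2 overlapped their neighbours, and CRY1, BHLHE41, PER2 and RORA each stood apart from the gene above. CRY1 ranked last of the 10 in hypoxia, against rank 7 in normoxia, and BHLHE41 moved up to rank 3 in hypoxia, against rank 8 in normoxia.

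Hypoxia library 3 moved several of these values. Against the mean of hypoxia libraries 1 and 2 it was lower by log2(FPKM + 1) differences of -1.72 for NR1D2, -1.28 for CLOCK, -0.75 for RORA, -0.50 for CRY1 and -0.42 for BHLHE41. It was higher by 0.87 for NR1D1, 0.79 for PER1, 0.70 for BHLHE40, 0.26 for CRY2 and 0.18 for PER2. Over all tested genes the difference had a median of -0.20 and a 5th to 95th percentile range of -1.30 to 0.72. NR1D2 lay at percentile 0.765, CLOCK at 5.32, PER1 at 96.4 and NR1D1 at 97.5 of that distribution. The SD over genes of this difference was 0.65, whereas the difference between hypoxia libraries 2 and 1 had an SD of 0.30 and that of normoxia library 3 from normoxia libraries 1 and 2 an SD of 0.27. For NR1D2 and CLOCK hypoxia libraries 1 and 2 differed as well, with library 2 higher by 0.83 and 0.86. Over all tested genes that difference had a 95th percentile of 0.62. What the spread of these 2 genes was due to was not tested.

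How hypoxia library 3 differed went with the length of the gene on the genome. By annotated span, BHLHE40, NR1D1 and PER1 cover 7.56, 7.99 and 12.4 kb and were high in that library, whereas CLOCK, CRY1 and RORA cover 84.4, 89 and 102 kb and were low. BHLHE41 (6.36 kb) and NR1D2 (34.3 kb) were low as well, and CRY2 (33.3 kb) and PER2 (43.6 kb) were slightly high. BHLHE40 was also high in normoxia library 3, by 0.65 against normoxia libraries 1 and 2. The tested genes were set in 4 groups of equal size by span. From the shortest to the longest group the median difference of hypoxia library 3 was 0.13, -0.01, -0.42 and -0.58, and that of normoxia library 3 was 0.01, -0.04, -0.11 and -0.13. Hypoxia library 2 minus hypoxia library 1 also went with span, with medians of -0.10, -0.00, 0.13 and 0.24. Median log2 fold changes in the same order were -0.27, -0.29, -0.28 and -0.22 with the 6 libraries. Without hypoxia library 3 they were -0.30, -0.26, -0.14 and -0.04, and so rose with span. The fold changes given above without hypoxia library 3 for each tested gene are to be read beside this trend. The part that span, or anything that goes with it, has in the fold changes was not tested.

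**Figure D3:**
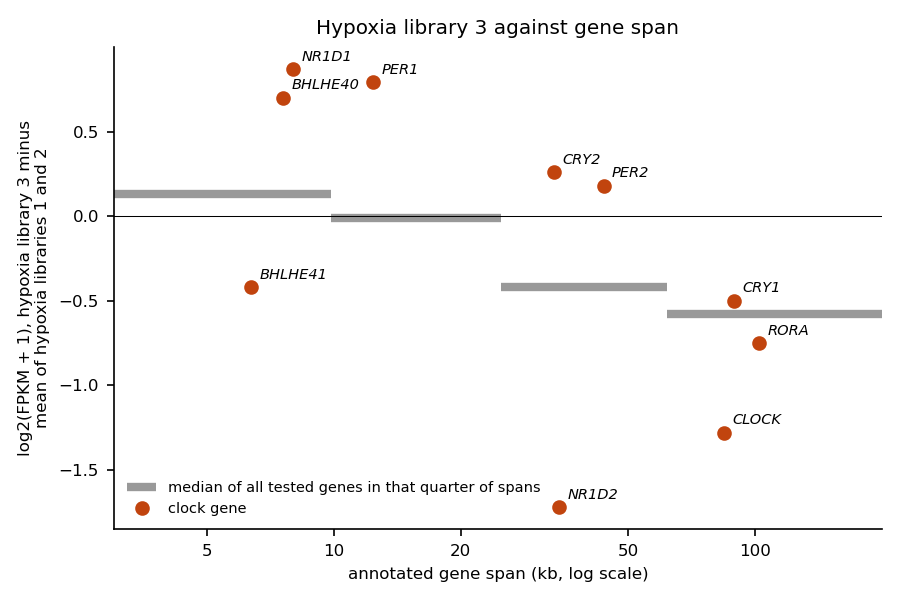
Annotated gene span in kb (log axis) against log2(FPKM + 1) in hypoxia library 3 minus the mean of hypoxia libraries 1 and 2, for the 10 clock genes (points). Grey bars give the median of all tested genes in each of 4 equal groups by span, drawn within the range of the axis, and step down to -0.58 for the longest genes, near which CRY1 and RORA lie.

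Other genes of the clock were read from a list of 36, of which 33 were in the table by symbol and 28 were tested; PER3, FBXL21 and BHLHE22 were not analysed here. The test called 9 of the 28, where 26.5% of all tested genes were called, with 4 higher (5.40%) and 5 lower (21.1%). It called 5 of the 28 without hypoxia library 1 (12.2% of all tested genes) or without normoxia library 1 (13.9%), 2 (10.2%) or 3 (12.3%), and 13 without hypoxia library 3 (41.6%), so these counts moved with those over all genes. The list's median log2 fold change was -0.09, against -0.26 over all tested genes, and 0.19 after scaling, against 0.02.

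The 4 that rose were CIART, NFIL3, DBP and TEF. CIART, a repressor of CLOCK and ARNTL, had 11, 10.5 and 12.4 FPKM in hypoxia, against 1.29, 1.25 and 1.65 FPKM in normoxia. The ratio of means was 8.09 and the log2 fold change 2.36 (SE 0.16, limma adjusted p = 0.00025). NFIL3, a repressor at D-box elements, had 26.8, 25.2 and 21 FPKM in hypoxia, against 6.7, 5.71 and 8.57 FPKM in normoxia (log2 fold change 1.67, limma adjusted p = 0.0014). DBP, an activator at those elements, had 4.19, 3.64 and 7.2 FPKM in hypoxia, against 0.924, 1.57 and 1.07 FPKM in normoxia (1.42, limma adjusted p = 0.00782). These 3 genes showed no overlap between conditions and held their call with each library left out. TEF, a relative of DBP, averaged 9.81 ± 2.15 FPKM in hypoxia and 5.91 ± 0.253 FPKM in normoxia (0.63, limma adjusted p = 0.0401), a call lost without hypoxia library 1 (0.121) or normoxia library 1 (0.136), 2 (0.132) or 3 (0.128) and with no filter (0.0619). HLF, the remaining member of that family, was too low to be tested, at 0.207 ± 0.108 FPKM in hypoxia and 0.0596 ± 0.0537 FPKM in normoxia.

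The other activators and the kinases of the core loop did not pass with the 6 libraries as deposited. ARNTL had 7.6, 8.96 and 4.04 FPKM in hypoxia, against 4.45, 3.43 and 3.46 FPKM in normoxia. Hypoxia library 3 fell within the normoxia range, and the log2 fold change of 0.67 (limma adjusted p = 0.12) passed without that library (0.96, limma adjusted p = 0.000798) and after scaling (0.96, limma adjusted p = 0.025). NPAS2 averaged 21.1 ± 3.22 FPKM in hypoxia and 18.5 ± 0.73 FPKM in normoxia (0.17, limma adjusted p = 0.477), well above CLOCK. The casein kinase genes CSNK1D and CSNK1E, whose products mark PER proteins for degradation, had log2 fold changes of -0.32 and -0.23 (limma adjusted p = 0.152 and 0.284) that turned to 0.03 and 0.10 after scaling. Without hypoxia library 3 CSNK1D passed as lower (-0.39, limma adjusted p = 0.0428).

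The 5 that fell were mostly cofactors with wide roles outside the clock. The arginine methyltransferase gene PRMT5 averaged 3.54 ± 0.514 FPKM in hypoxia and 10.3 ± 0.329 FPKM in normoxia (log2 fold change -1.32, limma adjusted p = 0.00151). WDR5, a subunit of histone methyltransferase complexes, averaged 6.79 ± 0.289 FPKM in hypoxia and 14.9 ± 1.35 FPKM in normoxia (-1.03, limma adjusted p = 0.00297). The RNA helicase gene DDX5 (-1.97, limma adjusted p = 0.0233) and the RNA-binding protein gene SFPQ (-1.34, limma adjusted p = 0.0456) were lowest in hypoxia library 3. Without that library DDX5 had -1.38 (limma adjusted p = 0.000165) and SFPQ -0.87 (limma adjusted p = 0.00225). With no filter neither passed (limma adjusted p = 0.0533 for DDX5 and 0.0907 for SFPQ). TIMELESS, whose product acts at replication forks in mammals, had -0.57 (limma adjusted p = 0.0373). After scaling TIMELESS (0.137) and SFPQ (0.0776) no longer passed. DDX5, SFPQ and TIMELESS also lost their calls without hypoxia library 1 (limma adjusted p = 0.0645, 0.105 and 0.135) and without any one normoxia library (0.0675 to 0.174).

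**Figure D4:**
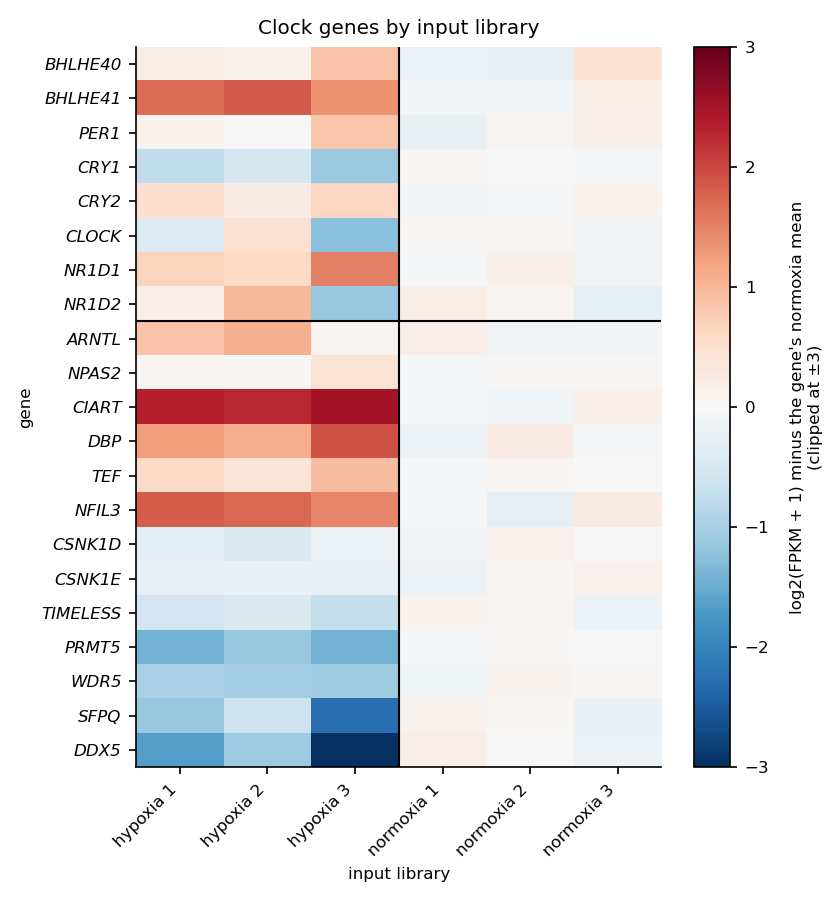
Log2(FPKM + 1) minus the gene's own normoxia mean in each input library (hypoxia libraries left, normoxia libraries right), for the 8 tested clock genes above the line and 13 named genes of the wider list below it; red is higher and blue lower than the normoxia mean, clipped at ±3. BHLHE41, CIART, NFIL3, DBP and NR1D1 are red in the 3 hypoxia libraries and CRY1, PRMT5, WDR5, SFPQ and DDX5 blue, while CLOCK and NR1D2 take both colours.

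Profiles over the 6 input libraries were compared by the Euclidean distance between mean-centred log2(FPKM + 1) values. The 3 nearest tested genes that have a symbol were taken. Those nearest to BHLHE40 were FMNL3, KDM6B and CPXM1, at distances of 0.186, 0.236 and 0.269. Nearest to BHLHE41 was NFIL3 (0.281), followed by PTN (0.321) and CTSV (0.344). CRY1 had MAP3K4 (0.064), CYB5D1 (0.0803) and KPNA6 (0.0907), and NR1D1 had MDFI (0.0997), TRPM4 (0.164) and SCRN2 (0.181).

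Markers were used to look at the cells themselves. The granulosa genes FSHR (5.52 FPKM in hypoxia and 9.74 in normoxia), FOXL2 (4.5 and 6.83), GATA4 (14.9 and 16) and INHA (10.5 and 10.4) were present, while CYP19A1, AMH and STAR averaged below 0.25 FPKM in either condition. The summed level of 13 granulosa markers was 152 to 305 FPKM in hypoxia and 338 to 537 FPKM in normoxia, most of it CYP11A1, a steroidogenic enzyme gene. Of the tested granulosa markers FSHR (limma adjusted p = 0.0101) and AMHR2 (0.784 and 2.72, limma adjusted p = 0.0209) were lower in hypoxia. FOXL2 (0.054), CYP11A1 (0.0612), NR5A2 (0.0737), NR5A1 (0.34), GATA4 (0.706), INHBA (0.826) and INHA (0.972) did not pass. Of 6 markers of fibroblasts and smooth muscle 6 were detected, with a summed level of 3293 to 4424 FPKM in hypoxia and 6870 to 8870 FPKM in normoxia, most of it ACTA2. Within that list PDGFRA (8.5 FPKM in hypoxia and 4.33 in normoxia, limma adjusted p = 0.0121) and COL1A1 (286 and 184, limma adjusted p = 0.0259) rose, ACTA2 (3477 and 7642, limma adjusted p = 0.00456) and DES (2.22 and 4.07, limma adjusted p = 0.0492) fell, and PDGFRB (16.2 and 9.21) and MYH11 (46.6 and 76.8) did not pass. The summed level of 5 endothelial markers was 2.9 to 3.16 FPKM in hypoxia and 6.31 to 6.93 FPKM in normoxia, nearly all PECAM1. That of 4 leukocyte markers was 2.45 to 6.46 FPKM in hypoxia and 3.5 to 4.54 FPKM in normoxia, nearly all CD68 and CD14. CD68 averaged 2.12 FPKM in hypoxia and 0.952 in normoxia, and CD14 1.86 and 2.99. Neither passed (limma adjusted p = 0.158 and 0.179), and PTPRC was below 0.08 FPKM in each library. Of 4 oocyte markers only GDF9 was found, at 1.02 FPKM in hypoxia and 1.24 in normoxia (limma adjusted p = 0.578). The 3 theca markers summed to 0.734 to 1.33 FPKM in hypoxia and 1.88 to 2.03 FPKM in normoxia. Their part in the changes of clock genes was not tested.

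m6A marks on mRNA are placed mostly around the stop codon and in the 3′ UTR and are read by proteins that act on RNA stability and translation. The authors' deposited lists, 1 per condition, give each peak's log2 enrichment of IP over input. They listed 11 peaks in 7 of the 10 clock genes in hypoxia and 16 peaks in 8 of the 10 in normoxia. Over all genes they held 24444 peaks in hypoxia and 25346 in normoxia. Of the 8 tested genes 5 had a peak in hypoxia, where 79.8% of all tested genes had one, 6 in normoxia, where 85.8% had one, and 5 in both, where 77.3% had one. NR1D1 and CRY2 had none in either list and CLOCK had one in normoxia alone. No differential peak was listed for the 10 genes, where 9.62% of tested genes had one; that list holds peaks with an unadjusted p-value under 0.05. A peak present in 1 list alone was therefore not shown to differ between conditions.

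The peaks of BHLHE40, PER1 and RORA recurred in the 3′ UTR. BHLHE40 had a 3′ UTR peak with a log2 enrichment of 2.69 in hypoxia (chromosome 13, 61529909 to 61532270, Sscrofa11.1) and of 2.67 in normoxia (61529909 to 61532330). It also had a 5′ UTR peak in the normoxia list alone (61526265 to 61528050, 1.34). PER1 had the same 2 stretches of its 3′ UTR in both lists, on chromosome 12. The larger had an enrichment of 3.39 in hypoxia (53362189 to 53363310) and 3.54 in normoxia (53362249 to 53363340), and the smaller, at 53361889 to 53362009, had 1.94 in hypoxia and 1.99 in normoxia.

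BHLHE41 carried its peaks in the 5′ part and middle of the gene. In hypoxia the list gave 1 span on chromosome 5 (47687601 to 47690847, log2 enrichment 3.04), annotated to the 5′ UTR. In normoxia it gave 3 that together cover more of the gene, from 47686404 to 47688050 (2.08, adjusted p = 0.0832 in the authors' deposited list), 47688110 to 47689352 (2.01) and 47689412 to 47690847 (4.08). CRY1 had a 5′ UTR peak in each list on chromosome 5, at 13275935 to 13276145 in hypoxia (3.04, adjusted p = 0.0977 in the authors' deposited list) and 13275815 to 13275995 in normoxia (1.93, adjusted p = 0.0145). These overlapped at their ends only.

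In NR1D2, RORA, CLOCK and PER2 the listed peaks covered more bases in normoxia, introns included. The same held for BHLHE40 (4208 bases in normoxia and 2362 in hypoxia) and BHLHE41 (4326 and 3247). PER1 (1213 and 1243) and CRY1 (181 and 211) had slightly more in hypoxia. Bases were not summed over all genes, so no share over the whole lists can be set beside these. NR1D2 had a single exonic peak in hypoxia (chromosome 13, 10773444 to 10773563, log2 enrichment 3.18), within a longer exonic peak of normoxia (10770064 to 10773653, 2.62) that was joined by a 3′ UTR peak (10778305 to 10788395, 2.16). RORA had 1 peak in hypoxia (chromosome 1, 111473341 to 111473550, 2.33), inside the 3′ UTR peak of normoxia (111473281 to 111474416, 3.99), and an exonic one in normoxia alone (2.25). CLOCK had a 3′ UTR peak in normoxia (chromosome 8, 54795736 to 54796304, 2.96). PER2 had 4 peaks in its 3′ UTR in hypoxia and 2 in normoxia, with enrichments of 1.27 to 3.13 in hypoxia and of 2.08 and 2.50 in normoxia. Its hypoxia peaks of 2.63 and 2.04 had an adjusted p of 0.243 and 0.111 in the authors' deposited list. Those of 2.63 and 1.27 overlapped the normoxia peaks. PER2 also had an exonic peak in normoxia alone (2.20).

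**Figure D5:**
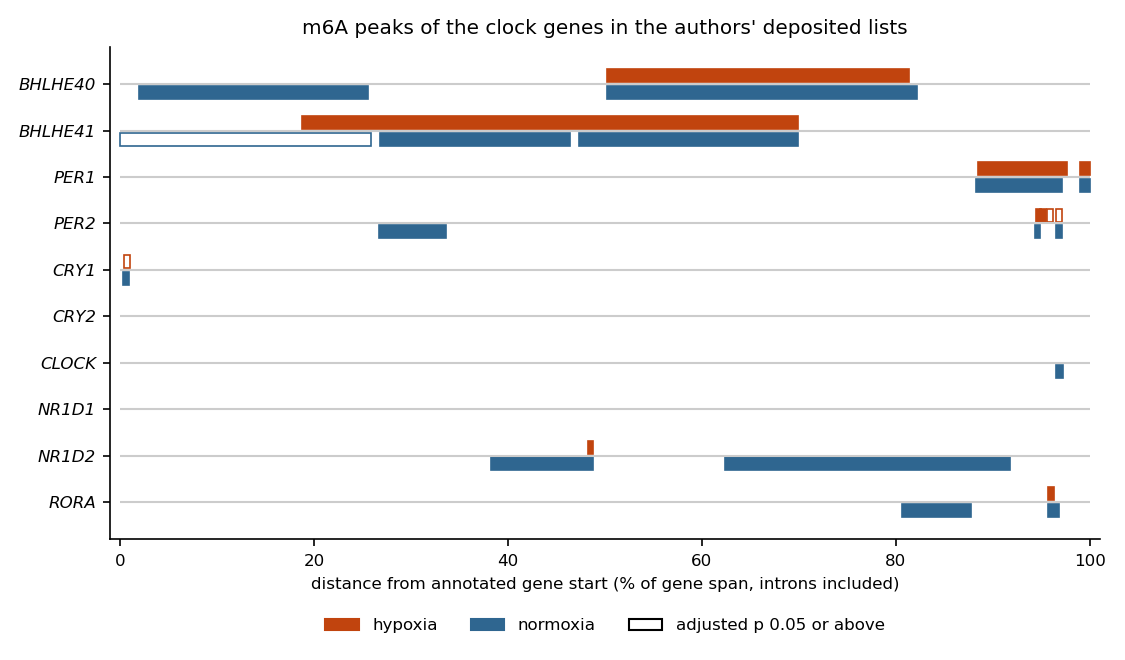
m6A peaks of the 10 clock genes in the authors' deposited lists, hypoxia (orange) above normoxia (blue), placed by distance from the annotated gene start as a percentage of the gene span; open bars mark an adjusted p of 0.05 or above, and the shortest peaks are widened so that they can be seen. BHLHE40 and PER1 show matching 3′ peaks in both conditions, whereas NR1D1 and CRY2 show none.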

How the data were processed

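The members, gene lists and tests were chosen with earlier results of these data known. Per the file headers, the authors deposited FPKM for 6 input libraries, their own log2 fold changes with p-values and q-values, and peak lists with log2 enrichments and p-values. The submitters' processing notes name HOMER 4.10, edgeR 4.1, StringTie 2.1.2, HISAT2 2.0.4, FastQC and fastp 0.19.4 and the build Sscrofa11.1, with no role for each tool. FPKM carries no counts: of 949 low genes searched for the steps of whole reads, 10 shared the commonest ratio between normoxia libraries 1 and 2, so depth is unknown and no counting interval is given. FPKM summed to 294929 to 326804 per library.

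Hypoxia was compared with normoxia with limma 3.58.1 (R 4.3.3, variance trend, robust) on log2(FPKM + 1) for genes reaching 1 FPKM in 3 or more libraries, a scale that understates changes of low genes. The fit was tested on simulated data with independent noise in each library, which did not model the departure of hypoxia library 3. Named genes were the members, every gene of a wider clock list past the threshold, 9 core genes in any case, and the 3 nearest profiles. Alternatives were pseudocounts of 0.1 and 0.5, no filter, median-ratio scaling, a replicate block, no trend, and each library left out. Peak starts are given counted from 1, since 3369 normoxia peaks begin 1 base before their gene's start and 0 at it; the lists' own peak lengths equal end minus start plus 1, so a start may be off by 1 base. Positive differential values were read as higher in hypoxia: of 519, 87 overlapped the hypoxia list alone and 0 the normoxia list alone. Promoter motifs were not analysed here.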

Additional observations from a re-analysis of the deposited data

How the results depend on the processing

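Of 101 values of the 8 tested clock genes over 13 alternatives, 86 kept direction and side of the threshold, 6 lost their call, 2 gained one and 7 turned sign. Those that turned were CLOCK without hypoxia library 3 (0.02; 0.19 with scaling as well) and NR1D2, near 0, with pseudocounts of 0.1 (-0.08) and 0.5 (-0.03) and without hypoxia library 1 (-0.07) or 2 (-0.49) or normoxia library 3 (-0.14). With a library left out CLOCK ran from -0.84 to 0.02 and NR1D2 from -0.49 to 0.58. The cause was not tested. The 3 calls among clock genes became 1 without hypoxia library 1 or any normoxia library, were again 3 without hypoxia library 2 or 3, were 2 with no filter, and were 5 with scaling and without hypoxia library 3; without a normoxia library CRY1 no longer entered the test. In the wider list 9 calls became 5 to 13 with a library left out. Over all tested genes 2699 calls (551 higher, 2148 lower) became 1501 after median-ratio scaling (748 higher, 753 lower), 1009 to 4162 with a library left out, lowest without normoxia library 2 and highest without hypoxia library 3. Scaling put the clock genes' median log2 fold change at 0.65 instead of 0.35, that of the wider list at 0.19 (0.23 also without hypoxia library 3) instead of -0.09, and CSNK1D (0.03) and CSNK1E (0.10; 0.00 also without hypoxia library 3) turned sign. With an adjusted p under 0.05 in the authors' lists, 8 of 11 hypoxia and 15 of 16 normoxia peaks of clock genes were left; requiring an overlap of 50% of the shorter span, taken over whole spans, kept 8 of 9 and 9 of 11 shared peaks.

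Replicate numbers are shared between conditions in the labels. Deviations from the condition mean were correlated between libraries of the same number over tested genes. The correlation was 0.586 for number 1, 0.0398 for number 2 and 0.697 for number 3. The 3 deviations of a gene within a condition cancel out, so these correlations depend on one another. Hypoxia library 2 correlated best with normoxia library 1 (0.641). Whether same-numbered libraries were paired is not settled by these values, and the main test did not pair them. With the replicate number as a block 3463 genes passed, instead of 2699, and again 3 clock genes. FPKM gives no depth, so what counting error limits could not be stated.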

Other observations

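ARNTL2, a relative of ARNTL, was chosen after its values were seen. It had 3.1, 5.26 and 0.977 FPKM in hypoxia, against 1.07, 1.1 and 0.934 FPKM in normoxia, with hypoxia library 3 inside the normoxia range. Its log2 fold change was 0.86 (SE 0.391, limma adjusted p = 0.153), and 1.32 without hypoxia library 3 (limma adjusted p = 0.000279).

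A differential m6A peak was listed for 1 of 20 clock genes looked up, CIART, where 9.62% of all tested genes had one, so the count itself does not set clock genes apart. In the authors' deposited table its 5′ UTR (chromosome 4, 98804004 to 98804328) has a log2 difference of -1.35 between hypoxia and normoxia (adjusted p = 0.0135). The normoxia list holds a peak there (98803856 to 98804739) and the hypoxia list does not, while a 3′ UTR peak was listed in both, with enrichments of 2.37 in hypoxia and 2.02 in normoxia.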
